A study of Mus musculus with 9 samples.

Results

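Tsc22d3, Fkbp5, Sgk1, Per1 and Dusp1 are 5 genes whose transcription is raised by glucocorticoid hormones in many cell types, and they serve here as a readout of stress hormone exposure in the spinal cord of sick mice. Their probe sets were taken by gene symbol in the array's annotation. Of 8251 genes with a probe set of their own, these 5 each had 1, and all 5 probe sets were bright enough to be tested. Total RNA of spinal cord was measured on 9 one-colour arrays, 1 for each sample, all from B10.PL mice. Calcitriol-treated EAE mice (replicates 6, 7 and 8) had experimental autoimmune encephalomyelitis, a T cell-driven inflammation of brain and spinal cord that models multiple sclerosis. They received 200 ng of calcitriol, the active hormone made from vitamin D. Placebo-treated EAE mice (replicates 1, 5 and 10) had the same disease and received placebo. Cords of both EAE groups were taken 6 h after treatment. Naive mice (replicates 2, 3 and 4) were the controls. The title of calcitriol replicate 6 names 1,25(OH)2D2, whereas its description names 1,25(OH)2D3. Age, sex, disease score and time of day at harvest are not given in the sources used here.

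Glucocorticoids are steroid hormones of the adrenal cortex, corticosterone in mice, that are released under stress and during inflammation. In the cell they bind the glucocorticoid receptor, which is held ready by the chaperone Hsp90 and its partners, moves into the nucleus and binds palindromic response elements near its target genes. In nervous tissue the receptor is known to act in neurons and glia, and in immune cells it restrains inflammatory transcription. Tsc22d3 encodes GILZ, a leucine zipper protein that binds NF-kappa B and AP-1 and carries part of the anti-inflammatory action. Fkbp5 encodes FKBP51, an Hsp90 co-chaperone that lowers the hormone binding of the receptor and closes a negative feedback loop. Sgk1 encodes a serine/threonine kinase that acts downstream of PI3-kinase on ion channels and transcription factors. Per1 is a transcriptional repressor of the circadian clock, and Dusp1 is a phosphatase that inactivates p38 and JNK. Sgk1, Per1 and Dusp1 are also induced by growth factor, cAMP or stress kinase signals, so they are less selective for the hormone.

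RefSeq promoter windows of 250 bases upstream of annotated transcript starts were matched for all 5 genes, 13 windows in all, and are on GRCm38.p6. They were searched on both strands for the glucocorticoid response element (AGAACA, any 3 bases, then TGTTC), its half-site AGAACA, the cAMP response element TGACGTCA and the E-box CACGTG, the letters bound by clock factors. The half-site lies inside the full element, so every full match also counts as a half-site match. The full element occurred in 10 of 32851 windows in the RefSeq table (0.0304%), and 1 of these belongs to Sgk1. That window is chr10:21993640-21993889 on the plus strand, 1 of 6 Sgk1 windows, and the match begins 189 bases upstream of the start. Its letters match on both strands in overlapping positions. The half-site occurred in 16.1% of all windows and in 4 of the 13, of which 3 belong to Sgk1 and 1 to Tsc22d3. The cAMP response element occurred in 1.55% of all windows and in that of Dusp1, beginning 143 bases upstream of its start. The E-box occurred in 6.02% of all windows and in 1 window each of Dusp1, Fkbp5, Per1 and Sgk1. The 4 windows are shown because together they hold every full response element, cAMP element and E-box found among the 13, and capitals mark those motifs but not half-sites outside a full element. The Dusp1 window is chr17:26508473-26508722 (minus strand), that of Fkbp5 chr17:28486150-28486399 (minus strand) and that of Per1 chr11:69098699-69098948 (plus strand). A match describes these letters in these windows, and the lack of one says only that the letters are not there.
Sgk1: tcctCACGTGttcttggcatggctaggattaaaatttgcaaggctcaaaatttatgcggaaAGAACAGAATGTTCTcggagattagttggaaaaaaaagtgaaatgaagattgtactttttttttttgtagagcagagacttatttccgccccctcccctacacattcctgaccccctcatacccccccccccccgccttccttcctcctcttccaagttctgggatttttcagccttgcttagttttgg
Dusp1: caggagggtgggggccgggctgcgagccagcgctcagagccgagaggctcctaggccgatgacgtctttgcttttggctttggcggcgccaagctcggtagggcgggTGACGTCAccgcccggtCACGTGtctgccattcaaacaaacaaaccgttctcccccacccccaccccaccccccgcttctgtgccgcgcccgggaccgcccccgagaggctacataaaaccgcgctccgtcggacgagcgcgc
Fkbp5: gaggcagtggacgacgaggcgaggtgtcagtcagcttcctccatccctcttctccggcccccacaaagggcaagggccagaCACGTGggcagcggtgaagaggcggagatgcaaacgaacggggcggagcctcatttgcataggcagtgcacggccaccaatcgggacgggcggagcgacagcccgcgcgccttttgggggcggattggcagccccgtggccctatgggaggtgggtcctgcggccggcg
Per1: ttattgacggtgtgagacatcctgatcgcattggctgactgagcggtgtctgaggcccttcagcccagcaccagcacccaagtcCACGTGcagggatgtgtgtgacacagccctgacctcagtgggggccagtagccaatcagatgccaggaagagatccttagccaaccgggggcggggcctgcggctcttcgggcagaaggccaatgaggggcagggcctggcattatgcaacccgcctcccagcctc

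The deposited values are linear intensity signals, which were scaled to a common trimmed mean of 192.8, raised to a floor of 19.3 and taken to log2. Of 12422 probe sets that are not controls, 12177 were tested. Array medians before scaling lay between 110.9 and 135.8. Log2 signals of arrays of the same group correlated across probe sets at 0.899 to 0.938 in calcitriol EAE cords, at 0.921 to 0.936 in placebo EAE cords and at 0.765 to 0.878 in naive cords, so the naive arrays differed most among themselves. Across all tested probe sets the median SE of a difference was 0.29 log2, and the number of arrays limits the precision. The labels do not say that samples of a group came from separate animals, and the p-values then rest on a spread that may be technical. In these whole cords, fewer cells of a type and less RNA per cell cannot be told apart. None of 13 neuron markers and none of 10 oligodendrocyte markers lay at the floor on all arrays of any group.

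Sgk1 was the member with the smallest p-values in both comparisons with naive cords. Its scaled signal was 742, 889 and 675 in calcitriol EAE cords, 788, 642 and 510 in placebo EAE cords and 442, 328 and 271 in naive cords. Every EAE array lay above every naive array, and the EAE groups overlapped each other. On the log2 scale Sgk1 averaged 9.58 ± 0.20 in calcitriol EAE, 9.31 ± 0.31 in placebo EAE and 8.41 ± 0.35 in naive cords (SD, n = 3 each). The order of the groups was thus calcitriol EAE, placebo EAE and naive, and the first pair did not differ beyond its spread. The full response element lay in 1 of the 6 Sgk1 promoter windows, and its part in these levels was not tested.

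Fkbp5, the receptor's feedback co-chaperone, lay near the floor on several arrays and had the widest spread of the 5 within a group. Its scaled signal was 19.4, 137 and 71.7 in calcitriol EAE cords, 104, 103 and 64.3 in placebo EAE cords and 42.2, 15.2 and -12.7 in naive cords. Both naive replicates 3 and 4 were set to the floor, and calcitriol replicate 6 lay just above it. All 3 placebo arrays lay above all 3 naive arrays, whereas the calcitriol arrays ran from near the floor to the highest value of the 9. The log2 means were 5.85 ± 1.44 in calcitriol EAE, 6.46 ± 0.39 in placebo EAE and 4.65 ± 0.65 in naive cords (SD, n = 3 each). With values this close to the floor, sizes of Fkbp5 differences depend on where the floor is set.

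Dusp1, the MAP kinase phosphatase, had scaled signals of 310, 400 and 551 in calcitriol EAE cords, 315, 325 and 235 in placebo EAE cords and 326, 197 and 207 in naive cords. Calcitriol replicates 7 and 8 lay above every other array, but calcitriol replicate 6 lay within the range of the other groups. The log2 means were 8.68 ± 0.42 in calcitriol EAE, 8.17 ± 0.26 in placebo EAE and 7.89 ± 0.40 in naive cords (SD, n = 3 each). The groups stood in the same order as for Sgk1, with overlap between each pair of neighbours.

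Per1, the clock repressor, had scaled signals of 205, 246 and 211 in calcitriol EAE cords, 244, 140 and 216 in placebo EAE cords and 132, 174 and 219 in naive cords. All 3 groups overlapped. The log2 means were 7.78 ± 0.14 in calcitriol EAE, 7.61 ± 0.42 in placebo EAE and 7.42 ± 0.36 in naive cords (SD, n = 3 each).

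Tsc22d3, which encodes GILZ, had scaled signals of 108, 143 and 120 in calcitriol EAE cords, 134, 123 and 85.1 in placebo EAE cords and 120, 108 and 215 in naive cords. Its highest value was on naive replicate 4, the array with the lowest Fkbp5 and Sgk1 signals, and the groups overlapped. The log2 means were 6.94 ± 0.20 in calcitriol EAE, 6.81 ± 0.35 in placebo EAE and 7.14 ± 0.53 in naive cords (SD, n = 3 each), so Tsc22d3 was the only one of the 5 whose naive mean was the highest.

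Single arrays ranked alike for several members. Calcitriol replicate 7 had the highest signal of the 9 arrays for Fkbp5, Sgk1 and Per1, and placebo replicate 10 the lowest of the placebo arrays for Tsc22d3, Fkbp5, Sgk1 and Dusp1. The plot of member signals by array shows these levels.

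**Figure D1:**
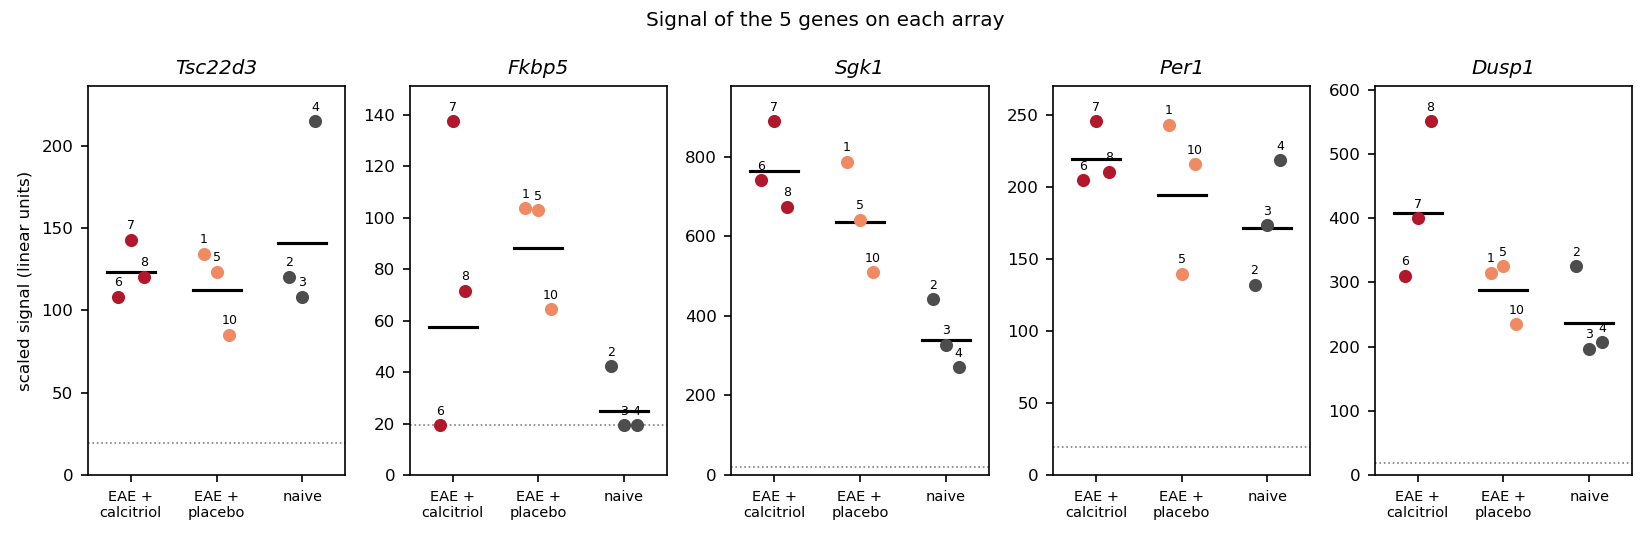
Scaled signal (linear axis from 0) of each of the 5 genes on each of the 9 arrays, in calcitriol EAE, placebo EAE and naive cords. Points are arrays, digits above them are replicate numbers, bars are group means taken on the log2 scale, and the dotted line is the floor of 19.3, at which lower values are drawn; Sgk1 is the only gene for which all 6 EAE arrays lie above all 3 naive arrays.

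The first comparison sets placebo EAE cords against naive cords. No treatment is given for the naive mice, so the disease and the placebo treatment cannot be told apart here. No member passed the threshold, a limma adjusted p (Benjamini-Hochberg over 12177 probe sets) of 0.05, while 0.936% of all probe sets did, nearly all of them higher in placebo EAE. Sgk1 was 0.90 ± 0.22 log2 higher (SE), which is 1.87-fold, with a 95% interval of 0.41 to 1.40 and a limma adjusted p of 0.133. Fkbp5 was 1.82 ± 0.65 log2 higher, 3.52-fold against a naive group with 2 of 3 arrays at the floor, with an interval of 0.36 to 3.28 and a limma adjusted p of 0.374. For both genes all 3 placebo arrays lay above all 3 naive arrays, which held upward for 7.39% of all probe sets. An unadjusted limma p below 0.05 with a higher level was reached by the same 2 members, beside 5.54% of all probe sets. The remaining members gave smaller differences, none past the test: Dusp1 at 0.29 ± 0.26, Per1 at 0.18 ± 0.25 and Tsc22d3 at -0.33 ± 0.30 log2. The interval for Tsc22d3, -0.996 to 0.34, allows a fall of nearly 1 log2 as well as a small rise. The median over the 5 genes was 0.29 log2, beside -0.02 over all probe sets, and 4 of the 5 values were above 0, beside 47.7% of all. Without naive replicate 2 the Sgk1 difference was 1.09 with an adjusted p of 0.0297 (0.00921 to 0.440 over all alternatives).

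The second comparison asks whether calcitriol moved these genes within 6 h of treatment, with calcitriol EAE cords set against placebo EAE cords. No member passed the limma threshold and neither did any other probe set (0%), and the groups overlapped for all 5, whereas 9.99% of all probe sets showed no overlap in either direction. At an unadjusted limma p of 0.05, 314 probe sets (2.58%) and 0 of the 5 members passed. Dusp1 had the largest positive difference of the 5, 0.50 ± 0.26 log2 (SE), with a 95% interval of -0.09 to 1.09 and an unadjusted limma p of 0.0857. Sgk1 was at 0.26 ± 0.22 with an interval of -0.23 to 0.76, and Per1 at 0.18 ± 0.25 with an interval of -0.39 to 0.74. Tsc22d3 was at 0.13 ± 0.30 with an interval of -0.53 to 0.80. Fkbp5 was at -0.61 ± 0.65 with an interval of -2.07 to 0.85, and without calcitriol replicate 6 its value was 0.17. All 5 limma adjusted p-values were 1. The median over the 5 was 0.18 log2, beside 0.00 over all probe sets, and 4 of 5 values were above 0, beside 49.8%. These intervals do not show that the drug left the genes as they were: they allow rises of more than 1 log2 for Dusp1 and falls of more than that for Fkbp5.

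The third comparison sets calcitriol EAE cords against naive cords, so it holds the disease, the drug and the act of dosing together. Sgk1 rose by 1.17 ± 0.22 log2 (SE), 2.25-fold, with a 95% interval of 0.68 to 1.66 and a limma adjusted p of 0.0276. It was the only member called, beside 2.00% of all probe sets called in either direction and 1.68% called higher, and the only one without overlap, beside 8.45% of all probe sets upward. Dusp1 was 0.79 ± 0.26 log2 higher with an unadjusted limma p of 0.0138 and an adjusted p of 0.230, and Fkbp5 was 1.202 ± 0.65 higher with an adjusted p of 0.526. At an unadjusted limma p below 0.05, 2 members were higher, Sgk1 and Dusp1, beside 6.68% of all probe sets. Per1 was at 0.36 ± 0.25 and Tsc22d3 at -0.20 ± 0.30, neither past the test. The median over the 5 was 0.79 log2, beside -0.02 over all probe sets, and 4 of 5 values were above 0, beside 48.0%. This comparison shares its naive arrays with the first and its calcitriol arrays with the second, so the 3 values of a gene are not independent.

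The call of Sgk1 was close to the threshold: over 19 alternatives the log2 difference stayed between 1.01 and 1.36 and the adjusted p ran between 0.00175 and 0.103, with the call lost in 8. It was lost without any 1 of calcitriol replicates 6, 7 or 8, placebo replicate 5, or naive replicates 3 or 4, with adjusted p-values of 0.0901, 0.0998, 0.0827, 0.0554, 0.103 and 0.0729 in that order. Without calcitriol replicate 6 the Fkbp5 difference was 1.99, and without calcitriol replicate 7 it was 0.58.

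**Figure D2:**
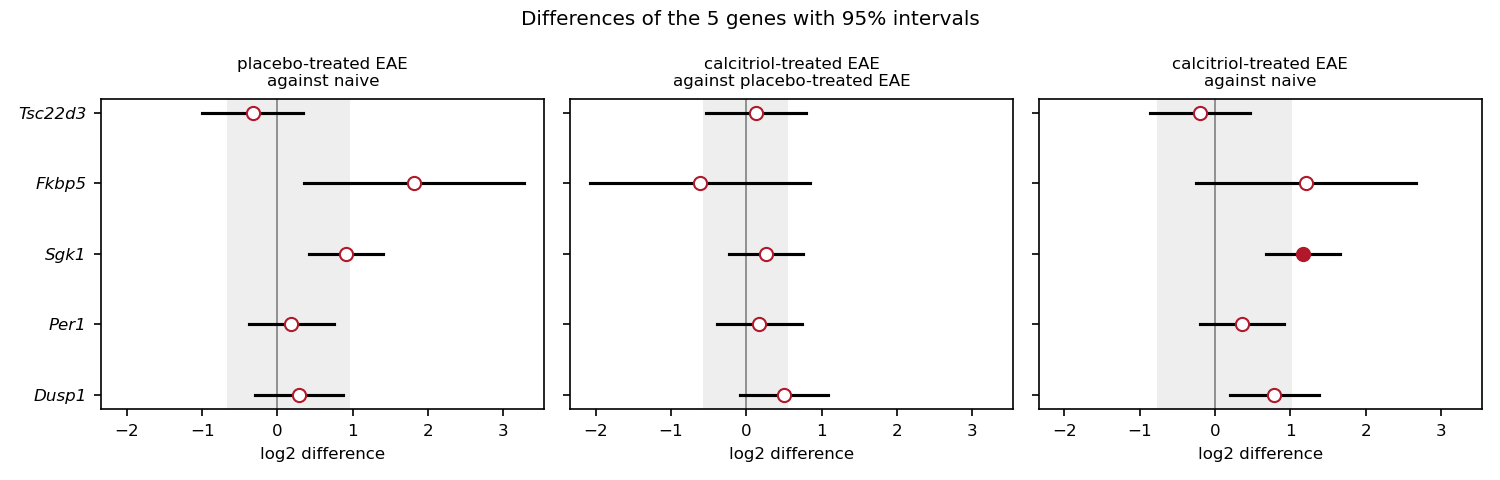
Log2 differences of the 5 genes in the 3 comparisons, with 95% intervals; filled points passed a limma adjusted p of 0.05 and the grey band spans the 5th to 95th percentile of all 12177 probe sets. Only Sgk1 in calcitriol EAE against naive is filled, and every interval of calcitriol EAE against placebo EAE crosses 0.

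Measures of RNA quality and some, not all, measures of cell content moved with the disease groups. The beta-actin control probe sets had a 5′ minus 3′ log2 difference of -0.52, -0.83 and -0.65 in calcitriol EAE cords, -1.11, -0.42 and -0.87 in placebo EAE cords and -0.25, -0.03 and 0.12 in naive cords, so every EAE array lay below every naive array. Naive replicate 2 stood apart on other controls. Its Gapdh 3′ signal was 0, beside 2685 and 2356 on naive replicates 3 and 4, and its 18S 3′ signal was 83.4, beside 1360 and 2173. The summed signal of 21 monocyte, macrophage and microglia markers was 6756 to 10313 in calcitriol EAE, 6209 to 7693 in placebo EAE and 3899 to 4206 in naive cords, where Lyz2 and Cd53 were at the floor on all arrays. Of the 21, 7 rose in calcitriol EAE against naive and 3 in placebo EAE against naive. Over all probe sets 1.68% and 0.887% were called higher in those comparisons. Ctss, the protease cathepsin S, rose by 2.85 ± 0.30 in calcitriol EAE and 2.35 ± 0.30 in placebo EAE, and Mpeg1, a macrophage pore protein, by 1.93 ± 0.32 in calcitriol EAE, while Lyz2 was at least 22.5-fold and 9.69-fold higher and Cd53 at least 14.3-fold and 7.66-fold higher in calcitriol EAE and placebo EAE.

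The 14 neutrophil markers summed to 5513 to 8286 in calcitriol EAE, 5576 to 7331 in placebo EAE and 3234 to 3538 in naive cords, with S100a9 at the floor on all naive arrays. Of these, 4 rose in each EAE group against naive and 10 were not called. Over all probe sets, 1.68% were called higher in calcitriol EAE and 0.887% in placebo EAE. S100a8 rose by 3.34 ± 0.28 in calcitriol EAE and 3.16 ± 0.28 in placebo EAE, and Chil3 by 4.14 ± 0.61 and 3.34 ± 0.61. S100a9 rose by at least 3.70-fold and 4.67-fold, and Lcn2 also rose. Chil3 alone had 796 to 2449 in calcitriol EAE and 64.1 to 111 in naive cords, so it weighs heavily in the sums. The 13 neuron markers summed to 6178 to 6834 in calcitriol EAE, 6546 to 8595 in placebo EAE and 9875 to 18563 in naive cords. The top naive sum was on replicate 2, beside 10739 and 9875 on naive replicates 3 and 4. Cplx1, of the synaptic release machinery, fell by 1.59 ± 0.25 in calcitriol EAE and by 1.44 ± 0.25 in placebo EAE. The 13 fibroblast and meninges markers summed to 3269 to 4235 in calcitriol EAE, 2708 to 3598 in placebo EAE and 1916 to 2045 in naive cords. The matrix gene Fn1, the only 1 of them called, rose by 3.83 ± 0.25 in calcitriol EAE and 3.31 ± 0.25 in placebo EAE. Fn1 alone had 1092 to 1917 in calcitriol EAE, 774 to 1249 in placebo EAE and 82.6 to 115 in naive cords. It thus weighs heavily in the sums. Of the 13 values against naive, 8 were above 0 in calcitriol EAE (median 0.18 log2) and 9 in placebo EAE (median 0.22). The 16 T cell and B cell markers summed to 3137 to 3275 in calcitriol EAE, 2918 to 3078 in placebo EAE and 3250 to 3489 in naive cords. None of these was called by limma. In either direction, 0 in calcitriol EAE and 2 in placebo EAE had an unadjusted limma p below 0.05 against naive. Upward alone, 6.68% and 5.54% of all probe sets had such a p.

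Astrocyte and oligodendrocyte marker sums overlapped between each EAE group and naive cords. The 13 astrocyte markers summed to 9950 to 15110 in calcitriol EAE, 14785 to 16562 in placebo EAE and 8250 to 15016 in naive cords. The astrocyte overlap rests on naive replicate 2, which had the sum of 15016. Naive replicates 3 and 4, at 9309 and 8250, lay below every EAE array. Among them Serpina3n, an acute phase serpin of reactive astrocytes, was the only one called. It rose by 4.89 ± 0.22 log2 in calcitriol EAE and 5.30 ± 0.22 in placebo EAE against naive. Of the 13 values against naive, 5 were above 0 in calcitriol EAE (median -0.07 log2) and 7 in placebo EAE (median 0.03). Serpina3n gave 3295 to 4842 of the sum in calcitriol EAE, 4266 to 7184 in placebo EAE and 139 to 151 in naive cords. The sums thus mix its rise with the levels of the other markers. The 10 oligodendrocyte markers summed to 5108 to 7724 in calcitriol EAE, 7111 to 7505 in placebo EAE and 7093 to 9610 in naive cords, and the myelin gene Mog fell by 1.83 ± 0.30 in calcitriol EAE. The 14 endothelium and pericyte markers summed to 1670 to 1780 in calcitriol EAE, 1725 to 1939 in placebo EAE and 1457 to 1719 in naive cords, overlapping naive in calcitriol EAE but not in placebo EAE. None of the 14 was called by limma. In either direction, 4 in calcitriol EAE and 2 in placebo EAE had an unadjusted limma p below 0.05 against naive. Upward alone, 6.68% and 5.54% of all probe sets had such a p. Sgk1 was thus higher on the same arrays that had higher sums of myeloid and fibroblast markers, with Fn1 weighing heavily in the latter. Those arrays also had a lower sum of neuron markers and a lower 5′ share of beta-actin. The part of these measures in the Sgk1 and Fkbp5 differences was not tested.

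The glucocorticoid receptor machinery, 16 tested genes for the receptor, its chaperones, steroid-converting enzymes and cofactors, had 0 called members in each of the 3 comparisons by limma. Over all probe sets 0.936% were called in placebo EAE against naive, 0% in calcitriol EAE against placebo EAE and 2.00% in calcitriol EAE against naive. With shares this low, 0 of 16 says little about these genes. At an unadjusted p below 0.05 there was 1, Fkbp4 in calcitriol EAE against naive, and 0 in either other comparison. Medians were -0.20 log2 for placebo EAE against naive, -0.14 for calcitriol EAE against placebo EAE and -0.39 for calcitriol EAE against naive. The medians over all probe sets were -0.02, -0.001 and -0.02 in that order. Nr3c1, the receptor itself, had scaled signals of 9.96, 4.63 and 30.6 in calcitriol EAE, 101, 6.04 and -26.9 in placebo EAE and 17.4, 31.6 and 48.5 in naive cords. On 2 calcitriol, 2 placebo and 1 naive array it was at the floor, and its differences of -0.58 to 0.12 log2 had an SE of 0.64. Its probe set is too dim here to say whether the receptor's transcript differed.

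Hsd11b1, the enzyme that regenerates active glucocorticoid inside cells, was measured well above the floor. Its signals were 325, 315 and 295 in calcitriol EAE, 280, 379 and 388 in placebo EAE and 335, 409 and 379 in naive cords. All 3 calcitriol arrays lay below all 3 naive arrays. The share of all probe sets that separated downward is not given here, and 8.45% separated upward. The Hsd11b1 difference was -0.26 ± 0.16 log2, with an unadjusted limma p of 0.133 and an adjusted p of 0.583. Fkbp4, which encodes the co-chaperone FKBP52 that opposes FKBP51 on the receptor, was at -0.71 ± 0.26 log2 in calcitriol EAE against naive (limma adjusted p = 0.296). The Fkbp4 probe set carries a suffix that marks sequence shared within a gene family, so other family members may add to its signal. Dnaja1, a chaperone of the Hsp70 system, was at -0.61 ± 0.35 in placebo EAE against naive, and the cofactor gene Nrip1 at 0.25 ± 0.19 in calcitriol EAE against placebo EAE, neither called. The mineralocorticoid receptor gene Nr3c2 had no tested probe set.

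Of 40 other tested genes known to be induced by glucocorticoids, 5 rose and 0 fell in placebo EAE against naive cords, and 6 rose and 0 fell in calcitriol EAE against naive cords. Their medians were 0.24 log2 in both, beside -0.02 over all probe sets, and none was called between calcitriol EAE and placebo EAE, where the median was 0.04. Between calcitriol EAE and placebo EAE, 2.58% of all probe sets had an unadjusted limma p below 0.05 and 9.99% showed no overlap. Of the 40 genes, the 1 with such a p was Anxa1, which encodes the anti-inflammatory annexin A1, at 0.71 ± 0.29 log2 (limma adjusted p = 1). The Anxa1 groups also showed no overlap. Its probe set has the same family suffix as that of Fkbp4. Cebpd, a C/EBP transcription factor of the acute phase response, had scaled signals of 224, 360 and 249 in calcitriol EAE, 475, 425 and 301 in placebo EAE and 43.5, 50.4 and 31.5 in naive cords. It rose by 2.73 ± 0.27 log2 in calcitriol EAE and 3.26 ± 0.27 in placebo EAE against naive, with limma adjusted p-values of 0.00189 and 0.000783. Cebpb, a related factor, rose by 3.09 ± 0.46 in calcitriol EAE and 2.86 ± 0.46 in placebo EAE against naive (limma adjusted p = 0.00932 and 0.024), with 2 of 3 naive arrays at the floor.

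Mt2, a metallothionein that binds zinc and copper, had signals of 4572, 8051 and 4504 in calcitriol EAE, 7031, 6428 and 5027 in placebo EAE and 2266, 1200 and 1200 in naive cords. It rose by 2.04 ± 0.33 in placebo EAE against naive (limma adjusted p = 0.025). Lcn2, the iron-sequestering lipocalin that is also a neutrophil granule product, rose by 2.15 ± 0.26 in calcitriol EAE and 2.01 ± 0.26 in placebo EAE against naive (limma adjusted p = 0.00401 and 0.0104). Timp1, a metalloproteinase inhibitor, rose by 0.93 ± 0.15 in calcitriol EAE against naive (limma adjusted p = 0.0128), but another Timp1 probe set had the opposite sign. The other genes called, chosen here after their values were seen, were Mt1 in placebo EAE at 1.90 ± 0.35 and, in calcitriol EAE against naive, Mt2 at 1.89 ± 0.33 and Nfkbia at 0.83 ± 0.15. Nfkbia encodes the NF-kappa B inhibitor I kappa B alpha.

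Of the 40 values, 28 were above 0 in calcitriol EAE against naive, beside 48.0% of all probe sets, and 27 in placebo EAE against naive, beside 47.7%. Some members thus went the other way. In placebo EAE against naive Cdkn1c was at -1.72 ± 0.47 log2 and Tat at -0.50 ± 0.15 (limma adjusted p = 0.198 and 0.255). Neither was called, and both were chosen here after their values were seen. The share called higher over all probe sets was 1.68% for calcitriol EAE and 0.887% for placebo EAE against naive. The count of 6 in calcitriol EAE was 3 without calcitriol replicate 6 and 2 without calcitriol replicate 8. The count of 5 in placebo EAE was 2 without placebo replicate 1, 1 without placebo replicate 5, 3 without naive replicate 3 and 2 without naive replicate 4.

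**Figure D3:**
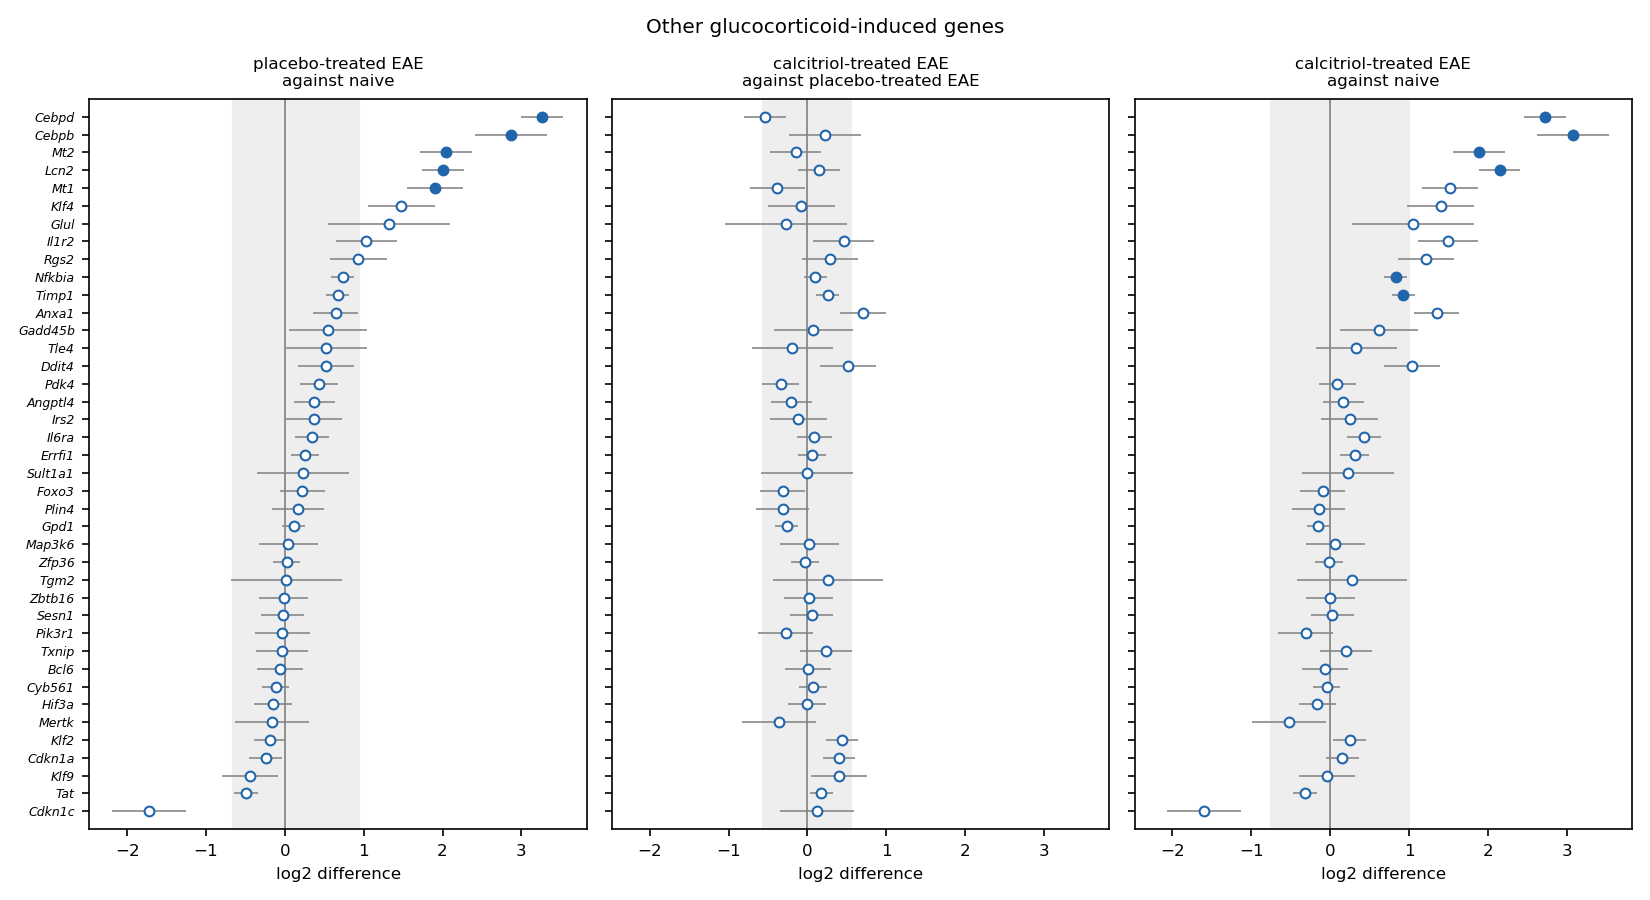
Log2 differences (x axis) of other glucocorticoid-induced genes, sorted by placebo EAE against naive, with bars of 1 SE and filled points for a limma adjusted p below 0.05. Cebpd and Cebpb stand farthest to the right at 2.73 to 3.26, and no gene is filled for calcitriol EAE against placebo EAE.

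Among 25 tested inflammatory genes that glucocorticoids are known to repress, 4 rose and 0 fell in calcitriol EAE against naive cords, and 2 rose and 0 fell in placebo EAE against naive cords, with medians of 0.48 and 0.42 log2. Over all probe sets 1.68% and 0.887% were called higher in those comparisons. Cxcl10, a chemokine induced by interferon, had signals of 143 to 271 in calcitriol EAE, 83.4 to 111 in placebo EAE and 6.35 to 30.0 in naive cords. It rose by 3.00 ± 0.33 log2 in calcitriol EAE and 2.08 ± 0.33 in placebo EAE against naive (limma adjusted p = 0.00275 and 0.024), with 2 naive arrays at the floor. The monocyte chemokines Ccl2 and Ccl7 were at the floor on all 3 naive arrays. Ccl2 was at least 37.6-fold higher in calcitriol EAE (limma adjusted p = 0.0327), and Ccl7 at least 6.71-fold higher in calcitriol EAE and at least 3.85-fold higher in placebo EAE (limma adjusted p = 0.00545 and 0.0415). Ccl3, another chemokine, rose by 0.66 ± 0.13 in calcitriol EAE against naive (limma adjusted p = 0.0364). Between calcitriol EAE and placebo EAE none of the 25 was called by limma, and 22 of the 25 values were above 0, beside 49.8% of all probe sets, with a median of 0.13 log2. At an unadjusted limma p below 0.05 there were 2, beside 2.58% of all probe sets, and 1 of them was Cxcl10 at 0.92 ± 0.33. The lean upward was not particular to these genes. In the same comparison 18 of the 21 monocyte, macrophage and microglia markers were above 0, with a median of 0.33 log2.

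The families of the single members gave few calls. Of 16 other period and clock genes, Bhlhe40, a repressor of clock-driven transcription, rose by 1.51 ± 0.22 in calcitriol EAE and 1.36 ± 0.22 in placebo EAE against naive (limma adjusted p = 0.00889 and 0.025), and the other 15 were not called. The medians of the 16 were -0.26 and -0.21 log2 in those comparisons, where 1.68% and 0.887% of all probe sets were called higher. Of 18 other dual specificity phosphatases and MAP kinases none was called by limma in the 3 comparisons. In each comparison with naive 3 had an unadjusted limma p below 0.05, counted in either direction. Upward alone, 6.68% of all probe sets had such a p in calcitriol EAE and 5.54% in placebo EAE. Dusp6, an ERK phosphatase, was at 1.21 ± 0.32 in calcitriol EAE against naive (limma adjusted p = 0.114) with 1 naive array at the floor, and another Dusp6 probe set had the opposite sign. The kinase gene Mapkapk2, downstream of p38, was at 1.58 ± 0.46 in placebo EAE against naive (limma adjusted p = 0.234). Of 10 other FK506-binding proteins none was called by limma, and Fkbp4 in calcitriol EAE against naive was the 1 with an unadjusted p below 0.05. Over these 10 medians were -0.02 in calcitriol EAE and 0.01 in placebo EAE against naive. The genes of smallest p without a call were Fkbp3 at -0.44 ± 0.27 in placebo EAE against naive and, between calcitriol EAE and placebo EAE, Fkbp8 at -0.23 ± 0.16, the clock kinase Csnk1e at -0.43 ± 0.27, the p38 family kinase Mapk12 at -0.44 ± 0.24 and the TSC22 domain gene Tsc22d4 at -0.42 ± 0.19.

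Of 13 kinases, regulators and substrates linked to SGK1, 1 was called, in calcitriol EAE against naive, where 2.00% of all probe sets were called. Ndrg3, a member of the NDRG family that holds the SGK1 substrate NDRG1, had signals of 111 to 153 in calcitriol EAE, 180 to 203 in placebo EAE and 264 to 441 in naive cords. The 3 groups did not overlap, and between calcitriol EAE and placebo EAE that held in either direction for 9.99% of all probe sets. Ndrg3 fell by 1.36 ± 0.22 log2 in calcitriol EAE against naive (limma adjusted p = 0.0131). Its differences were -0.85 ± 0.22 in placebo EAE against naive (limma adjusted p = 0.152) and -0.51 ± 0.22 in calcitriol EAE against placebo EAE (adjusted p = 1). Its groups stood in the reverse order of those of Sgk1. The neuron marker signal was lower on the same EAE arrays, and its part in the Ndrg3 difference was not tested.

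Of 8 TSC22 domain genes and partners of GILZ, Cebpb and Fos were called higher in both comparisons with naive. Over all probe sets 1.68% were called higher in calcitriol EAE and 0.887% in placebo EAE against naive. Fos, an AP-1 subunit to which GILZ binds, had signals of 164 to 284 in calcitriol EAE, 145 to 265 in placebo EAE and 57.1 to 86.0 in naive cords. It rose by 1.58 ± 0.30 in calcitriol EAE and 1.60 ± 0.30 in placebo EAE against naive (limma adjusted p = 0.0295 and 0.0441), and another Fos probe set had the opposite sign in calcitriol EAE. Of 19 immediate early genes, which share stress and growth factor inputs with Sgk1, Per1 and Dusp1, Fos and Ier3 were called in calcitriol EAE against naive and Fos alone in placebo EAE against naive. Ier3, an early response gene of NF-kappa B, rose by 1.96 ± 0.35 in calcitriol EAE (limma adjusted p = 0.0218). None was called between calcitriol EAE and placebo EAE by limma, where the smallest p belonged to Myc at -0.91 ± 0.32, with 1 calcitriol array at the floor.

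Genes with a pattern most like a member's were found for Sgk1 and Fkbp5, whose group means differed by at least 1 log2. Likeness was the root mean square difference of log2 values, each centred on its own mean, over the 9 arrays, and a small value means a like pattern. For Sgk1, whose own spread about its mean was 0.556 log2, the nearest genes were Hbegf at 0.133, AI506816 at 0.158 and Zfp36l1 at 0.172. Hbegf encodes a growth factor of the EGF family, and Zfp36l1 an RNA-binding protein that promotes mRNA decay.

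Hbegf signals were 270, 348 and 268 in calcitriol EAE, 321, 281 and 201 in placebo EAE and 174, 145 and 138 in naive cords. As for Sgk1, calcitriol replicate 7 was highest, placebo replicate 10 lowest among the EAE arrays, and naive replicate 4 lowest of all. Its difference in calcitriol EAE against naive was 0.95 ± 0.21 log2 (limma adjusted p = 0.0535), beside 1.21 ± 0.22 for AI506816 (0.0218), which comes from a probe set whose suffix marks dropped design rules.

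For Fkbp5, whose spread about its mean was 1.08 log2, the nearest were Spsb1 at 0.364, Sdc4 at 0.383 and Phf7 at 0.516. Sdc4 encodes the heparan sulfate proteoglycan syndecan 4. Its signals were 177, 627 and 775 in calcitriol EAE, 709, 737 and 487 in placebo EAE and 206, 157 and 113 in naive cords. It shared with Fkbp5 a low value on calcitriol replicate 6 and low values on all naive arrays. The Spsb1 signals were 41.2, 150 and 93.7 in calcitriol EAE, 109, 90.2 and 73.4 in placebo EAE and 67.5, 25.4 and 5.42 in naive cords, again low on calcitriol replicate 6. None of the 3 was called by limma in any comparison, and Spsb1 and Phf7 come from probe sets whose suffix marks sequence shared within a family. These genes were picked for their likeness on the same arrays, so their values are a description.

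**Figure D4:**
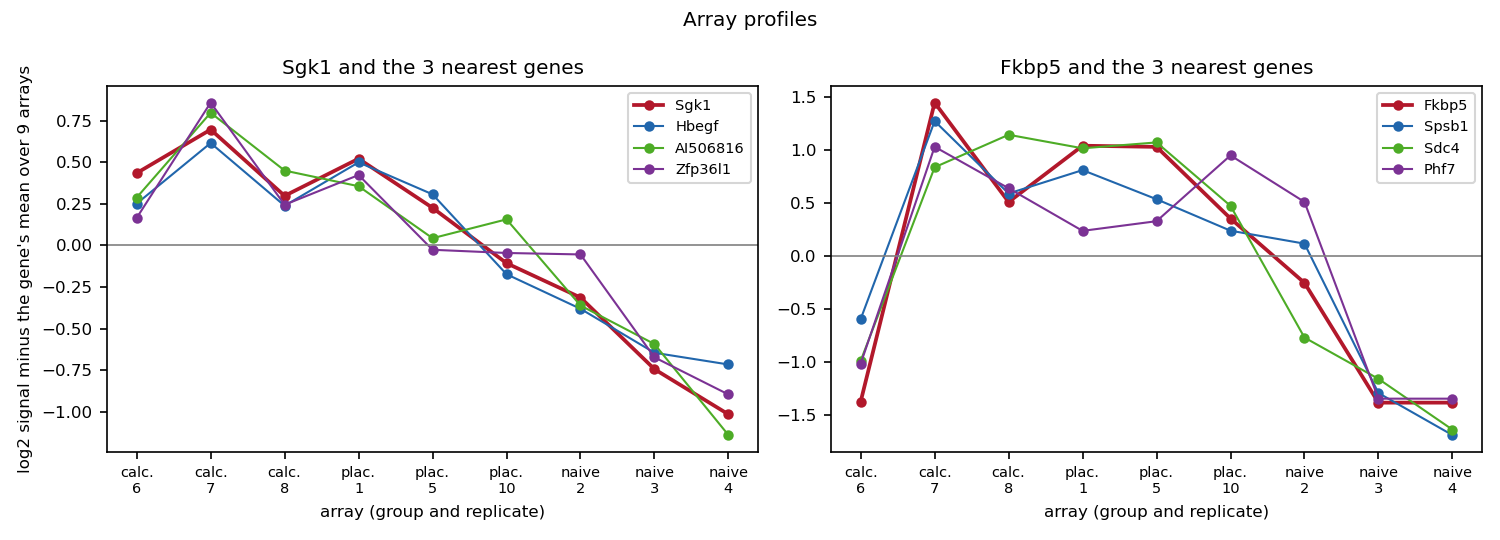
Centred log2 signal on the 9 arrays for Sgk1 and Fkbp5 with the 3 genes nearest to each, arrays ordered as calcitriol EAE, placebo EAE and naive. Hbegf follows Sgk1 with a root mean square difference of 0.133 log2, and Fkbp5, Spsb1, Sdc4 and Phf7 all dip on calcitriol replicate 6.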

How the data were processed

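Each of the 9 arrays has deposited intensity values on a linear scale for 12488 probe sets, of which 1.27% to 3.53% were below 0, and 765 values were exactly 0. The authors' scaling and summary of these intensity values are not given in the sources used here. The members and lists were chosen with earlier results of these data known, and the lists were written from general knowledge. The arrays were brought to 1 mean of 192.8, computed without the 2% at either end and without 66 control probe sets. Signals were raised to a floor of 10% of that mean and taken to log2. Probe sets above the floor on at least 3 arrays were tested, and 245 were too dim. A single limma fit (limma 3.58.1, R 4.3.3; lmFit, then eBayes with an intensity trend) over the 9 arrays yielded all 3 comparisons, with 6 residual degrees of freedom and Benjamini-Hochberg adjustment over 12177 probe sets. The fit was also run on simulated data with independent normal noise, which does not measure its power for the member genes.

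Gene symbols came from the platform annotation, with 10855 probe sets of 1 symbol, 396 of several and 1237 of none, and 0 symbols were updated through RefSeq. A listed gene is represented by 1 probe set, a plain one where there is one and then that with the highest mean. Named were the 5 members, Nr3c1, Nr3c2 and Hsd11b1, up to 4 members of each list past the threshold by smallest p (or the 1 with the smallest), and the 3 genes nearest to a member. Of the cell marker lists the text gives only genes past the threshold. Promoter windows are those of RefSeq on GRCm38.p6. Alternatives were no scaling, quantile normalization, other floors and filters, exact zeros as missing, array weights, no intensity trend, only the 2 groups compared, and each replicate left out. Plots were made in Python 3.11.15 (pandas 2.3.3, matplotlib 3.10.9).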

Additional observations from a re-analysis of the deposited data

How the results depend on the processing

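Counts of the 5 genes called were 0 in placebo EAE against naive, 0 in calcitriol EAE against placebo EAE and 1 in calcitriol EAE against naive. With array weights, which gave naive replicate 3 a weight of 4.38 and naive replicate 2 one of 0.26, they were 2, 0 and 3, with Fkbp5 and Sgk1 called in the first and Fkbp5, Sgk1 and Dusp1 in the third. The third count was 0 without the intensity trend and 0 with only the 2 groups compared. Leaving out 1 replicate gave 0 to 1 in the first comparison (1 without naive replicate 2), 0 to 0 in the second and 0 to 1 in the third. Signs that turned, none of a called value, were these. Tsc22d3 in calcitriol EAE against naive was 0.15 with array weights and ran between -0.39 and 0.11 without 1 replicate (0.11 without naive replicate 4). In calcitriol EAE against placebo EAE, values without 1 replicate ran between -0.066 and 0.26 for Tsc22d3 (lowest without placebo replicate 10), -1.24 and 0.17 for Fkbp5 (highest without calcitriol replicate 6) and -0.062 and 0.34 for Per1 (lowest without placebo replicate 5). Per1 in placebo EAE against naive ran between -0.0024 and 0.42 (lowest without naive replicate 2). The cause was not tested. Fkbp5 in placebo EAE against naive ran between 1.15 with the floor at 20% and 2.26 with the floor at 5%. Over all probe sets, calls in placebo EAE against naive were 114, 639 with array weights, 61 with only the 2 groups and 20 to 176 without 1 replicate. In calcitriol EAE against naive they were 244, 1014, 118 and 75 to 392. In calcitriol EAE against placebo EAE they were 0 and, without 1 replicate, 0 to 1. List counts without 1 replicate were added after seeing the data. No paired analysis was possible because no replicate number is shared by 2 groups.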
